A study of Mus musculus with 4 samples.

Results

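The IL-6, oncostatin and IL-10 signalling genes described here are 9 genes taken by name: the ligands Il6, Osm and Il10, the receptor chains Il6ra, Il6st, Il10ra and Il10rb, the transcription factor Stat3 and the inhibitor Socs3. They were 9 of the 27998 genes in the count matrices, and all 9 were found. No rule on measured values picked them, but they were chosen with earlier results of these data known. The data were 4 single-cell RNA-seq libraries, 1 per group, of cells enriched with CD45 beads from tibialis anterior muscle injured with cardiotoxin, a snake toxin that kills muscle fibres and lets them regenerate. Libraries were made at 2 and 4 days post injury (dpi2 and dpi4) from male mice of 8 to 12 weeks. The control libraries came from Bach1 fl/fl littermates, and the libraries labelled KO from Bach1 fl/fl Lyz2Cre mice, so that every animal carried the floxed Bach1 allele. All were on the C57BL/6 background. Lyz2Cre is a knock-in at the lysozyme M gene that is active in monocytes, macrophages and neutrophils, where it removes the floxed Bach1 exon. BACH1 is a heme-regulated transcriptional repressor of the heme oxygenase gene Hmox1.

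IL-6 binds its receptor chain IL-6Rα (Il6ra) and then the shared signalling chain gp130 (Il6st), which oncostatin M (Osm) also uses with a receptor chain of its own. IL-10 binds IL-10Rα (Il10ra) with IL-10Rβ (Il10rb), and both routes lead to phosphorylated STAT3. STAT3 turns on Socs3, whose product binds gp130 and shuts off IL-6 signalling but not IL-10 signalling. In injured muscle, myeloid cells are a source of these cytokines during the change from inflammation to repair.

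The promoters of Il6 and Socs3 are shown because Il6 and Socs3 had the largest differences of the 9 genes in macrophages at dpi2. Each sequence runs from 250 bases before to 50 bases after the RefSeq transcription start on GRCm38.p6, and 5 of the 9 genes (Il6, Il6ra, Il6st, Stat3 and Socs3) had an entry. The Il6 promoter lies at chr5:30012864-30013163 on the plus strand, and the Socs3 promoter at chr11:117969317-117969616 on the minus strand. Capitals mark the match to TGANTCA, the AP-1 element or TRE, in Il6 and the match to TTCNNNGAA, the STAT element, in Socs3.
Il6: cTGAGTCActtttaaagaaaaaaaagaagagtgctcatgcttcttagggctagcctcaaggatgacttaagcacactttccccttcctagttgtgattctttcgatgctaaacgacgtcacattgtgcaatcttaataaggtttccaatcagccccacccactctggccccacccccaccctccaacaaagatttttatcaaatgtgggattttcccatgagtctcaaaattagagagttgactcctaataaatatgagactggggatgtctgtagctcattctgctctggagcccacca
Socs3: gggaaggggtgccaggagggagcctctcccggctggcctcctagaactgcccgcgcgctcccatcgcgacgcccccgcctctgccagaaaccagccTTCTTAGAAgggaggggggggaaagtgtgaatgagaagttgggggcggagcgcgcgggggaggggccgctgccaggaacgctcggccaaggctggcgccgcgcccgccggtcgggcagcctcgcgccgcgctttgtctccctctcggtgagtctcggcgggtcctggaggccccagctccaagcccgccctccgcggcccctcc
The Il6 match began 249 bases before the start and the Socs3 match 154 bases before it. Searched on both strands, TGANTCA was in 7.81% and TTCNNNGAA in 8.30% of 32851 promoters of the same length. The study counts the TRE, which the Il6 promoter holds, among the elements that BACH1 binds. TGACNNNGC, the core of the antioxidant response element that BACH1 and NRF2 share, was in 12.4% of promoters and in none of these 5, and the promoters of Il6ra, Il6st and Stat3 held none of the 3 motifs. TGANTCA and TGACNNNGC can overlap in a sequence, and a match describes letters only.

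The genes lie on 7 chromosomes of GRCm38. By the GENCODE annotation the ligand genes are Il6 at chr5:30013114-30019981, Osm at chr11:4236420-4241026 and Il10 at chr1:131019845-131024974. The receptor genes are Il6ra at chr3:89864059-89913196, Il6st at chr13:112464070-112510086, Il10ra at chr9:45253837-45269149 and Il10rb at chr16:91406164-91425834. Stat3 is at chr11:100885098-100939540 and Socs3 at chr11:117966079-117970047.

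The 4 libraries held 4177 to 6602 barcodes and 57010520 to 80228489 unique molecular identifiers (UMIs, each standing for 1 captured mRNA molecule), and 3433 to 5721 cells passed the filters at median depths of 10702 to 15157 UMIs. The pan-leukocyte gene Ptprc (CD45) was detected in 89.9 to 95.2% of kept cells, and any pair of libraries shared 2 to 14 barcodes. Bach1 summed over each library was 189 and 187 CPM, UMIs of the gene per 1000000 UMIs of the library, in the control and KO libraries at dpi2, and 207 and 217 CPM at dpi4. Bach1 was thus at nearly the same level in the 2 libraries of each dpi, and counts per gene cannot show the loss of a single exon. Lyz2, the gene into which Cre was inserted, was 9388 CPM against 17.5 CPM at dpi2 and 15845 CPM against 21.6 CPM at dpi4. Hmox1 was 502 CPM against 8190 CPM and 417 CPM against 6326 CPM. Cells fell into 25 clusters, which were named from marker genes as macrophage-like, monocyte-like and so on and are called macrophages, monocytes and so on below. A shallow cluster with neutrophil markers stayed unnamed. Monocytes numbered 2636 and 1032 cells at dpi2 but only 48 and 69 at dpi4, and macrophages 1904, 1058, 3024 and 2560 cells in the order control dpi2, KO dpi2, control dpi4 and KO dpi4, the order used for every row of 4 values below. The unnamed cluster held 90, 483, 4 and 12 cells.

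Levels are the raw UMIs that the cells of 1 class had in 1 library, as a share of all UMIs of those cells. With 1 library per group no difference between conditions could be tested, and no p-value is given. Intervals are exact 95% intervals for counting error only, since variation between animals was not measured. Those of levels and ratios also take each UMI as independent, although UMIs of a gene were clumped in cells. Where few cells held most of the UMIs, as for Il6 in macrophages, these intervals are too narrow. Statements that intervals were apart carry the same limit. A gene is called higher or lower where 2 libraries differed by at least 2-fold, with 1 outside the interval of the ratio and no fewer than 50 UMIs between them.

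Il6 was concentrated in monocytes among the leukocytes, and in both classes of mononuclear phagocyte it was higher in the library labelled KO at dpi2. In monocytes the level was 29.8, 98.8, 29.7 and 61.4 CPM (833, 1461, 14 and 35 UMIs). In macrophages it was 0.512, 6.28, 1.72 and 2.26 CPM (19, 185, 97 and 103 UMIs). The dpi2 KO library was thus the highest of the 4 in both classes, and its intervals, 93.8 to 104 CPM in monocytes and 5.41 to 7.25 CPM in macrophages, did not overlap those of the dpi2 control library. The ratio of KO to control at dpi2 was 3.32 (3.05 to 3.62) in monocytes and 12.3 (7.63 to 20.8) in macrophages. At dpi4 it was 1.31 (0.984 to 1.75) in macrophages, and the 14 and 35 UMIs in monocytes were too few for a call.

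Dendritic cells held 12.8, 5.80, 19.5 and 16.5 CPM of Il6, so that here the dpi2 KO library was the lowest. That difference, a ratio of 0.452 (0.261 to 0.760), rests on 50 and 22 UMIs. The call was lost under 6 alternatives, and the log2 ratio, -1.15 as reported, ranged from -1.18 to -0.55 over 9. The 6 monocyte markers summed to 2946 and 1926 CPM in the same dpi2 dendritic cells, and their part in the difference was not tested. Neutrophils had 0, 2, 0 and 0 Il6 UMIs, NK cells had none, and T cells had 3, all in 1 of 14 cells of the dpi2 KO library. The few stromal cells that passed the enrichment also carried Il6: endothelial cells reached 22.0, 93.2, 93.3 and 50.7 CPM in 18, 15, 32 and 40 cells, and fibroblasts at dpi4 38.4 and 52.1 CPM in 39 and 15 cells. Classes under 20 cells are given for completeness and not ranked. Of the myeloid classes with Il6 at dpi2, the control order was monocytes, dendritic cells (9.53 to 16.9 CPM) and macrophages (0.308 to 0.8 CPM), with all intervals apart. In the KO library monocytes were first, and macrophages and dendritic cells (3.64 to 8.78 CPM) did not differ beyond counting error.

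The Il6 difference at dpi2 was also seen within clusters. The macrophages of the 2 libraries sat in different clusters: cluster 1, led by Pdpn, Hmga2 and Htr2b, held 66.9% of control and 20.7% of KO macrophages, while cluster 12, with Jag1 and Pdpn among its leading genes, held 2.94% and 41.6%. Hmox1, which BACH1 represses, was also among the leading genes of cluster 12, and the libraries were clustered without integration. How far the clusters, and ratios weighted by their shares, carry the genotype difference itself was not tested. Cluster 10, led by the resident-type macrophage gene Cd163 with Ppbp and Gja1, held 21.4% and 28.9%. Within cluster 10 Il6 was 0.274 CPM in control and 7.34 CPM in KO cells, a ratio of 26.7 (7.08 to 226) from 2 and 58 UMIs. Within cluster 12 it was 1.03 and 7.83 CPM, a ratio of 7.57 (1.33 to 302) from 1 and 102 UMIs. In cluster 1 the interval, 0.879 to 6.02 around 2.39, included 1. Weighting the KO clusters by their control shares gave a log2 ratio of 2.49 for macrophages in place of 3.62.

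Monocytes shifted between clusters as well. Cluster 3, led by Ly6c2, Ccl2 and Ccl7, held 45.9% of control and 19.0% of KO monocytes, and cluster 8, led by Vcan, Dmkn and Il6, 6.37% and 59.6%. Il6 is a leading gene of cluster 8 although the 9 genes were kept out of the genes used for clustering, so a high level there is no finding. Il6 rose from 6.61 to 24.1 CPM in cluster 3, a ratio of 3.64, and from 40.8 to 191 CPM in cluster 7, led by the interferon-response genes Cxcl10, Ifit1bl1 and Ifi205, a ratio of 4.68. In cluster 8 it was 56.0 and 112 CPM, and in cluster 9, led by the non-classical monocyte gene Ace with Ear2 and Ifitm6, 65.5 and 92.8 CPM (ratio 1.42). With KO clusters weighted by control shares the monocyte log2 ratio was 1.59 in place of 1.73, so it stayed over 2-fold.

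**Figure D1:**
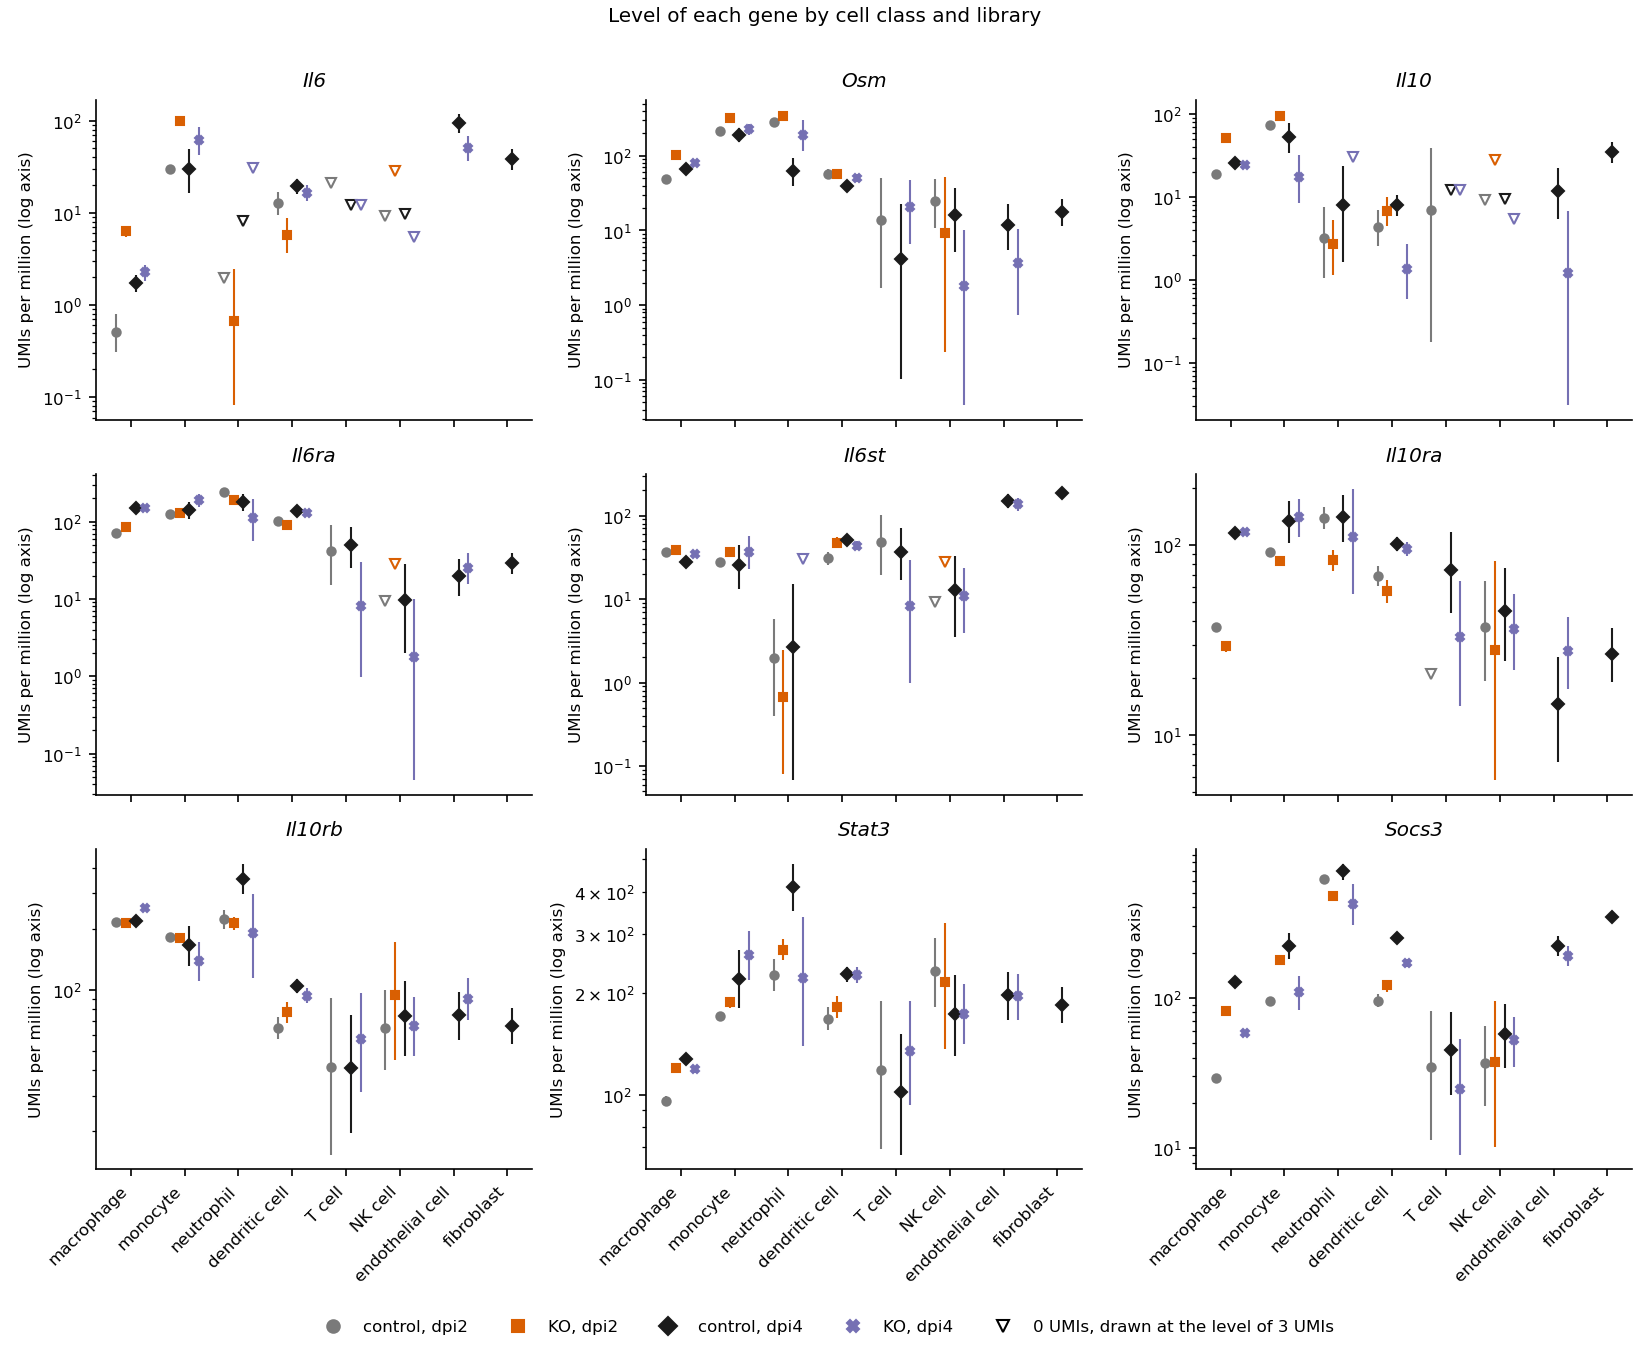
Level of each of the 9 genes (CPM, log axes) in each cell class with at least 20 cells, 1 symbol per library, with exact 95% counting intervals as bars and open triangles at the level of 3 UMIs where none was counted. Il6 stands highest in monocytes and stromal cells, Socs3 in neutrophils, where the 4 libraries sit between 424 and 694 CPM, and Il6st is near 0 in neutrophils at dpi2.

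Few cells carried the Il6 mRNA. In KO dpi2 macrophages 5.77% of cells had an Il6 UMI and the 10 highest cells held 60% of the UMIs, against 0.788% and 73.7% in the control library. In monocytes 11.7% of control and 25.8% of KO cells had one. With every cell thinned to 2000 UMIs, which removes the difference in depth, the monocyte share was 4.08% (3.35 to 4.92) against 10.6% (8.78 to 12.7) and the macrophage share 0.216% (0.0589 to 0.552) against 1.45% (0.812 to 2.37). Thinning left out 39 and 13 monocytes and 52 and 21 macrophages that were shallower. T or NK cells, taken as cells that hold only free RNA of myeloid genes, had 0 of 100 and 1 of 36 at dpi2, where 0 of 100 allows up to 3% by a limit of 3 counts and up to 3.62% by the exact interval. Their median depths before thinning were 3951 and 4736.5 UMIs, against 10029 and 13451 in monocytes. Neutrophils had 0 of 463, which allows up to 0.648% by 3 counts and 0.794% by the exact interval, and 1 of 767, or 0.130% (0.0033 to 0.724), at median depths of 2306.5 and 3422 UMIs. Against neutrophils the monocyte shares of both libraries and the macrophage share of the KO library lay higher with intervals apart, and the control macrophage share did not. Against T or NK cells, of which there were few, all intervals overlapped, and the macrophage share of 1.45% was below their 2.78% and is not read as expression.

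Osm, whose product acts through gp130, was highest in neutrophils and monocytes among the named classes at dpi2. The shallow unnamed cluster lay higher still, at 466 CPM (387 to 557) and 474 CPM (442 to 507). At dpi4 the control neutrophils (39.2 to 92.8 CPM) were not above macrophages. Its level was 285, 340, 61.9 and 192 CPM in neutrophils and 216, 320, 189 and 226 CPM in monocytes. Macrophages held 49.3, 101, 66.7 and 80.4 CPM. Dendritic cells had 57.5, 57.2, 39.9 and 50.7 CPM. T and NK cells stayed at 1.80 to 24.7 CPM. At dpi2 the order in the control library was neutrophils, monocytes, dendritic cells and macrophages, each neighbour apart from the next by interval except that dendritic cells (50.2 to 65.6 CPM) and macrophages (47.1 to 51.6 CPM) overlapped. In the KO library neutrophils (319 to 362 CPM) and monocytes (311 to 330 CPM) overlapped.

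Osm in macrophages at dpi2 was 2.04-fold (1.92 to 2.16) higher in the KO library, just past the 2-fold limit. It was 1.48-fold (1.43 to 1.54) in monocytes, which was under that limit. By cluster the macrophage ratio was 2.07 in cluster 10, 1.18 in cluster 1 and 0.915 in cluster 12, and with control cluster shares the log2 ratio was 0.47, under 2-fold. At dpi4 the macrophage ratio was 1.21. In neutrophils at dpi4 23 and 19 UMIs gave a ratio of 3.10 (1.59 to 5.94), below the UMI minimum. With cells thinned to 2000 UMIs, 10.0% of control and 18.5% of KO macrophages at dpi2 had an Osm UMI (unthinned 40.4% and 65.7%), and 2.00 and 2.78% of T or NK cells did (unthinned 6.86 and 5.56%).

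Il10, which encodes the cytokine that restrains myeloid activation, was detected mainly in monocytes and macrophages among the leukocytes. It was 73.7, 96.3, 53.1 and 17.5 CPM in monocytes, the 2 dpi4 values resting on 25 and 10 UMIs. In macrophages it was 19.0, 51.9, 26.1 and 24.8 CPM. Neutrophils had 0 to 8 UMIs per library. Monocytes were above macrophages in both dpi2 libraries, with intervals apart. At dpi4 the monocytes of the KO library, with an interval of 8.41 to 32.2 CPM, could not be told from macrophages.

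At dpi2 Il10 in macrophages was 2.74-fold (2.50 to 3) higher in the KO library, and in monocytes 1.31-fold (1.22 to 1.40). Of 4 macrophage clusters 2 had intervals above 1. Cluster 10 went from 30.9 to 77.4 CPM (ratio 2.51) and cluster 14 from 8.79 to 16.1 CPM (ratio 1.83, 1.01 to 3.29, from 30 and 22 UMIs), whereas the ratio was 0.870 in cluster 12 and 0.818 in cluster 1, both with intervals that included 1. Cluster 12, the cluster that held 41.6% of KO macrophages, had a high Il10 level in both libraries, 64.1 and 55.8 CPM. With control cluster shares the log2 ratio in macrophages was 0.54 in place of 1.45, and in monocytes it turned to -0.24 from 0.39, with cluster ratios of 0.605 in cluster 3 and 0.455 in cluster 9. The thinned share of macrophages with an Il10 UMI was 3.24% (2.48 to 4.15) and 6.46% (5.04 to 8.13), with 0 of 100 and 0 of 36 T or NK cells (unthinned 12.9 and 25.7%, with 1 of 102 and 0 of 36 T or NK cells). By the exact interval the 0 of 100 and 0 of 36 allow up to 3.62 and 9.74%, so that both macrophage intervals overlap those of T or NK cells. In dendritic cells at dpi4 Il10 was 7.97 and 1.37 CPM from 47 and 8 UMIs, a ratio of 0.172 (0.0703 to 0.368), and without doublet removal the log2 ratio was -0.95 in place of -2.54. All 10 macrophage markers were detected in these dendritic cells, at a summed 7954 CPM in control and 4314 CPM in KO cells, against 40949 and 33203 CPM in macrophages. Dendritic cell markers summed to 1059 and 1216 CPM there. The part of the macrophage markers in the Il10 difference was not tested.

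At dpi4 a class named from muscle markers, of 366 control and 77 KO cells, also carried Il10, at 26.1 and 1.22 CPM (165 and 2 UMIs). Most of it was cluster 15, led by the muscle fibre genes Acta1, Mylpf and Myl1, with 263 and 53 cells. The data go against that name. Ptprc was detected in 98.1% of the cells of both libraries, and macrophage markers summed to 53570 and 41504 CPM, above their sums in macrophages, against 361 and 250 CPM for muscle markers. These cells were not counted among the macrophages. In cluster 15 Il10 was 33.1 and 2.63 CPM from 151 and 2 UMIs, a ratio of 0.0794 (0.00953 to 0.292), and Socs3 was 147 and 51.3 CPM, a ratio of 0.349 (0.246 to 0.482). The Il10 difference was larger than in macrophages at dpi4, where the ratio was 0.953 (0.881 to 1.03), with intervals apart.

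**Figure D2:**
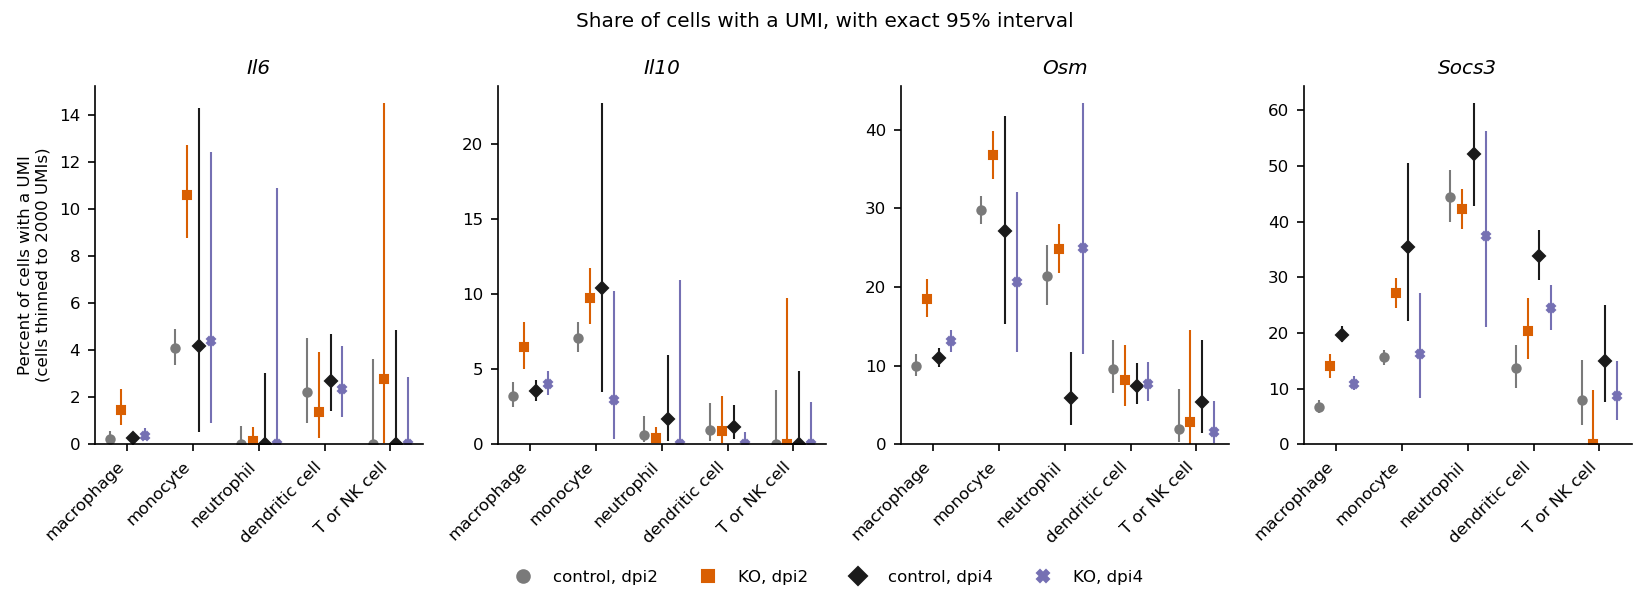
Share of cells (percent) with at least 1 UMI of Il6, Osm, Il10 and Socs3 after each cell was thinned to 2000 UMIs, by class and library, with exact 95% binomial intervals. Monocytes with Il6 went from 4.08 to 10.6% at dpi2, and macrophages with Socs3 from 6.64 to 14.1% at dpi2 and from 19.7 to 10.9% at dpi4. T or NK cells with Socs3 were 8.00% and 0 of 36 at dpi2 and 14.9 and 8.59% at dpi4.

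None of the 4 receptor chains passed the rule between the libraries of 1 dpi in any of the 4 myeloid classes. Of all genes, 0.690 to 6.79% passed it per direction in these pairs, so most genes were not called either. Il6st had too few UMIs for a call in neutrophils at both times and in monocytes at dpi4. Il6ra, the IL-6 binding chain, was 70.2, 84.8, 150 and 151 CPM in macrophages. Monocytes had 126, 128, 140 and 188 CPM. The neutrophil values were 239, 189, 178 and 111 CPM. Il6ra was therefore highest in neutrophils at dpi2, and in macrophages the 2 dpi4 libraries, at 146 to 154 CPM with their intervals, were above the 2 dpi2 libraries. The KO to control ratio in macrophages was 1.21 at dpi2 and 1.01 at dpi4.

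Il6st, the signalling chain that IL-6 and oncostatin M share, was nearly absent from neutrophils at dpi2. It had 3, 2, 1 and 0 UMIs there, or 1.96 and 0.672 CPM at dpi2, where neutrophils had the most Il6ra of the myeloid classes. At dpi4, with 128 and 35 neutrophils, the upper limits of 15 and 37.2 CPM were too wide for a statement. In macrophages Il6st was 36.9, 38.7, 28.1 and 35 CPM. In monocytes it was 27.9, 36.6, 25.5 and 36.8 CPM. Stromal cells held the most, where a class had 20 cells, with 150 and 137 CPM in endothelial cells at dpi4 and 186 CPM in control fibroblasts at dpi4. The KO to control ratio was 1.05 (0.968 to 1.14) in dpi2 macrophages, 1.25 (1.16 to 1.34) in dpi4 macrophages, 1.31 (1.17 to 1.47) in monocytes at dpi2 and 1.53 (1.21 to 1.94) in dendritic cells at dpi2. In dendritic cells at dpi4 the ratio was below 1, at 0.860 (0.725 to 1.02), with an interval that included 1.

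Il10ra, the IL-10 binding chain, was the receptor gene with the largest difference between dpi2 and dpi4 in macrophages. There it was 36.9, 29.3, 116 and 118 CPM. In monocytes it was 92.5, 82.1, 134 and 140 CPM, and in neutrophils 139, 83.4, 140 and 111 CPM. Macrophages were thus the lowest of these 3 classes at dpi2. Il10rb, which is shared with other receptors of the IL-10 family, showed 217, 215, 219 and 255 CPM in macrophages and 182, 181, 166 and 139 CPM in monocytes. Its KO to control ratio in macrophages was 0.988 (0.956 to 1.02) at dpi2, and at dpi4 it was 1.16 (1.13 to 1.19).

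Stat3, the transcription factor on which both receptor routes meet, was expressed in every leukocyte class. It was 95.9, 120, 128 and 119 CPM in macrophages. Monocytes had 171, 188, 221 and 259 CPM and neutrophils 226, 269, 414 and 222 CPM. Macrophages held the lowest level of the 4 myeloid classes in each library. The KO to control ratio in macrophages was 1.26 (1.20 to 1.32) at dpi2, and at dpi4 it was 0.927 (0.895 to 0.961), which is under the rule at both times.

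Socs3, the STAT3-induced inhibitor of gp130 signalling, was highest in neutrophils, at 617, 480, 694 and 424 CPM. In macrophages it was 29.2, 81.8, 128 and 58.4 CPM. In monocytes it was 95.8, 180, 223 and 109 CPM, and in dendritic cells 96.0, 121, 252 and 171 CPM. In all 3 of these classes the KO library was above the control library at dpi2 and below it at dpi4, and no intervals of a pair overlapped. In macrophages the KO library was 2.81-fold (2.61 to 3.02) higher at dpi2, and at dpi4 its level was 0.455 (0.435 to 0.476) of control. Monocytes gave 1.88 (1.78 to 1.98) and, on 105 and 62 UMIs, 0.487 (0.350 to 0.673). Dendritic cells gave 1.25 (1.09 to 1.44) and 0.678 (0.625 to 0.735).

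The direction of Socs3 was shared by the macrophage and monocyte clusters that could be compared, and at dpi2 not by the neutrophils. In these Socs3 was lower in the KO library at dpi2, a ratio of 0.778 (0.716 to 0.846), but TMM scaling, which allows for a shift shared by most genes, took its log2 from -0.36 to 0.00. In the shallow unnamed cluster it was 153 and 63.1 CPM in 90 and 483 cells. At dpi2 Socs3 in macrophages and monocytes was higher in the KO library in each of the 4 macrophage and 4 monocyte clusters, with ratios of 1.25 to 3.03 and intervals that left out 1. The ratio was 3.03 in cluster 10, 2.89 in cluster 14, led by the division genes Birc5 and Top2a, and 2.12 in cluster 7. At dpi4 it was lower in each of 6 macrophage clusters, with ratios of 0.390 to 0.733 and intervals that left out 1. Cluster 0, led by Vcam1, Slc40a1 and Sepp1, held 40.0% of control and 46.4% of KO macrophages at dpi4, and there Socs3 was 245 and 95.5 CPM. In the same cluster Il6 went the other way, from 1.38 to 3.23 CPM (ratio 2.34, 1.47 to 3.81). With clusters held at control shares the dpi2 log2 ratio of Socs3 in macrophages was 1.13 in place of 1.49. The thinned share of macrophages with a Socs3 UMI was 6.64, 14.1, 19.7 and 10.9% (unthinned 29.8, 65.0, 55.6 and 40.4%). T or NK cells held Socs3 as well (57.9 and 52.2 CPM in NK cells at dpi4), and whether it was their own mRNA or free RNA was not tested. Their thinned shares were 8.00% and 0 of 36 at dpi2 and 14.9 and 8.59% at dpi4. These were above the macrophage share in the control dpi2 library and below it in the others. At dpi4 they were lower in the KO library, as in macrophages. The part of free RNA in the macrophage shares was not tested.

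**Figure D3:**
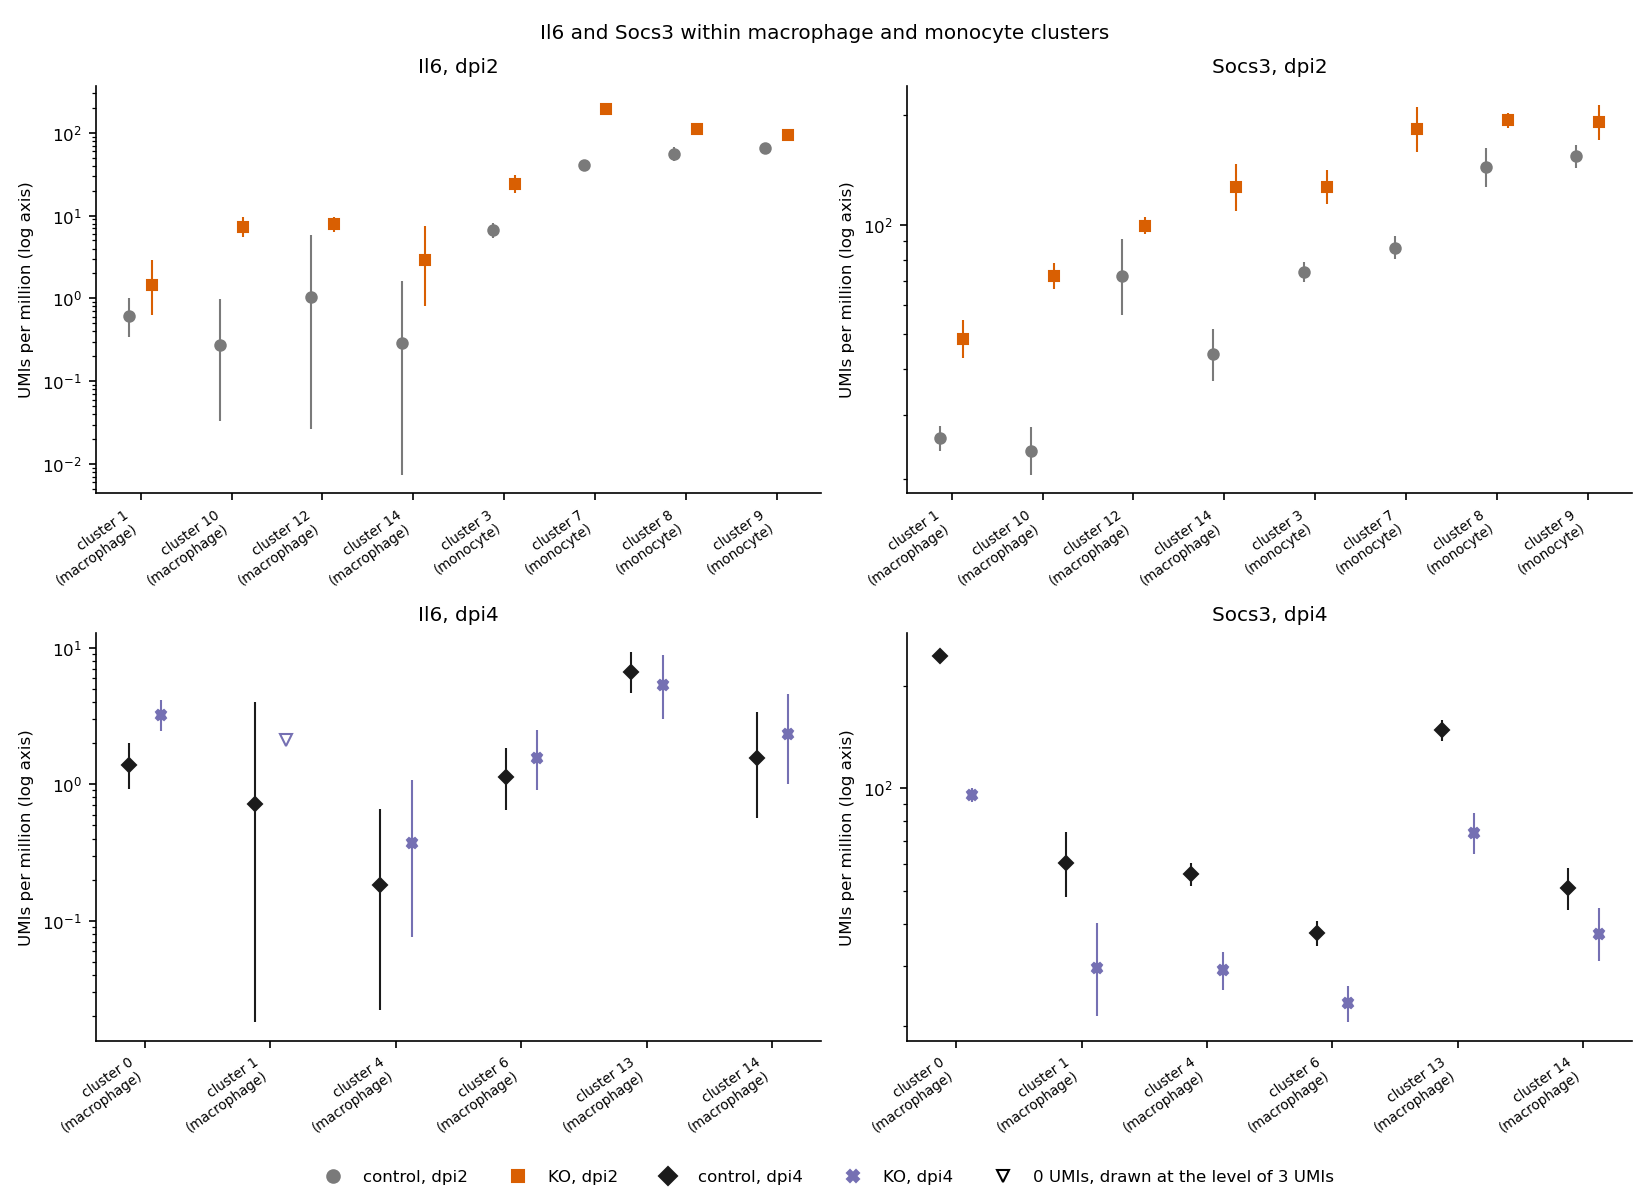
Level of Il6 and Socs3 (CPM, log axes) in control and KO cells of each macrophage and monocyte cluster that could be compared at dpi2 (top) and dpi4 (bottom), with exact 95% counting intervals as bars and open triangles at the level of 3 UMIs where none was counted. The KO symbol of Socs3 lies above the control symbol in all 8 clusters at dpi2 and below it in all 6 at dpi4.

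Muscle was digested with warm collagenase before the beads were used, and genes that such handling induces were read beside Socs3. The summed level of 9 immediate-early genes (Fos, Fosb, Jun, Egr1, Atf3, Ier2, Ier3, Dusp1 and Nr4a1) was 5110, 6973, 7205 and 6610 CPM in macrophages, which follows the same order within each dpi as Socs3. In monocytes it was 8928, 9066, 6702 and 8269 CPM, which follows it at dpi2 and not at dpi4. In dendritic cells it was 5489, 4504, 6949 and 6826 CPM, lower in the KO library at dpi2, where Socs3 was higher, and slightly lower at dpi4. Of the 9 genes 1 passed the rule in macrophages at dpi2 (median log2 0.38) and 0 at dpi4 (median log2 -0.07). The summed level of 5 heat shock genes was 768, 674, 371 and 427 CPM in macrophages and 800, 601, 635 and 863 CPM in monocytes, lower in the KO library at dpi2 and higher at dpi4, the reverse of Socs3. Their part in the Socs3 values was not tested. Monocyte markers summed to 1316, 1518, 670 and 603 CPM in macrophages, against 9907, 7644, 6213 and 7860 CPM in monocytes. Neutrophil markers summed to 113, 283, 96.7 and 76.5 CPM in macrophages and 215, 403, 125 and 64.9 CPM in monocytes, and so were highest in the dpi2 KO library in both classes. The median share of mitochondrial UMIs in macrophages was 3.31, 3.62, 4.67 and 4.85%. The part of these values in the results was not tested.

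Counted over the 9 genes, macrophages at dpi2 were the class with the most calls. There 4 genes (Il6, Osm, Il10 and Socs3) were higher and 0 lower in the KO library, when 2.30% of the 11099 genes with enough UMIs were higher and 2.18% lower. The median log2 ratio of the 9 was 0.33 and that of all genes -0.02. The calls of Osm and Il10 were lost with the control cluster mix, which left 2, and with monocytes and macrophages pooled only Il6 was called. The Il6 call rests on summed UMIs, since its share of macrophages was not read as expression. In macrophages at dpi4, 0 were higher and 1 (Socs3) lower, beside 0.986% and 1.42% of all genes, and that call was lost (log2 ratio -0.97) with each library clustered by itself. In monocytes at dpi2, 1 (Il6) was higher and 0 lower, beside 1.90% and 2.74%, and the median of the 9 was 0.39. In monocytes at dpi4, 6 of the 9 had enough UMIs, of which 0 were higher and 1 (Socs3) lower, beside 1.5% and 1.63%. This Socs3 call was lost with up to 20% mitochondrial UMIs, without doublet removal, at Leiden resolution 0.5, with the 9 genes among the variable genes, and with at least 200 UMIs asked for. The log2 ratio itself stayed between -1.92 and -0.92 (-1.04 as reported) over 9 alternatives that recompute it.

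Neither neutrophils nor dendritic cells repeated the macrophage calls, but some of these could not have been made there. At dpi2 the control and KO neutrophils had too few UMIs of Il6 (0 and 2) and Il10 (5 and 8). The dendritic cells had too few of Il10 (17 and 26). In neutrophils 6 of 9 genes had enough UMIs at dpi2 and 5 at dpi4, and none was called in either direction. Of all genes 2.50% were higher and 6.79% lower in neutrophils at dpi2, and 1.99% and 4.48% at dpi4. All genes together had a median log2 ratio of -0.30 in neutrophils at dpi2, so that Socs3 at -0.36 and Il6ra at -0.34 were near that median, Il10ra at -0.74 was below it and Osm and Stat3, both at 0.25, above it. In dendritic cells 0 genes were higher and 1 (Il6) lower at dpi2, beside 1.19% and 1.32% of all genes. At dpi4 0 were higher and 1 (Il10) lower, beside 0.701% and 0.690%. Both dendritic cell calls were lost, among other settings, when each library was clustered by itself or at least 200 UMIs were asked for.

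**Figure D4:**
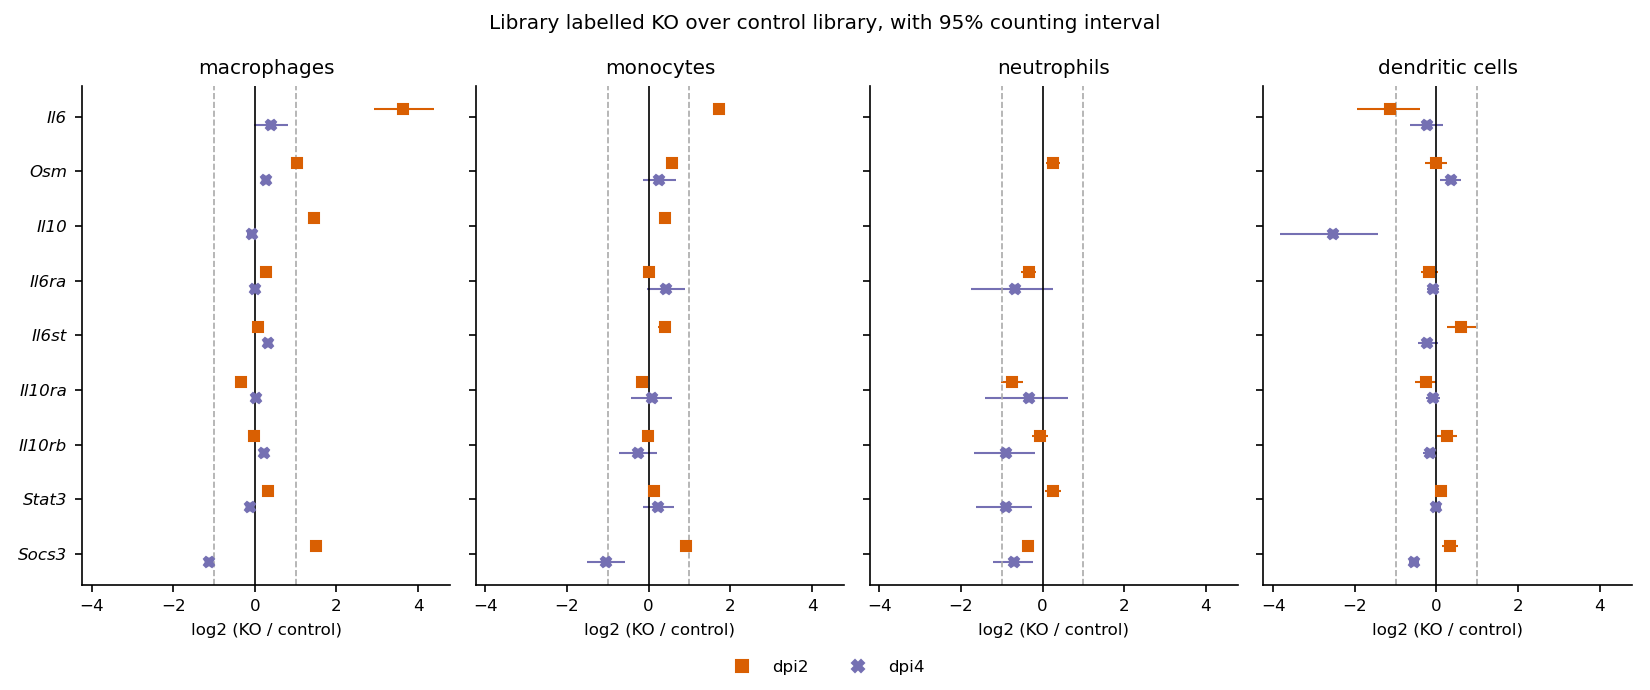
KO to control ratio (log2) of the 9 genes in macrophages, monocytes, neutrophils and dendritic cells at dpi2 and dpi4, with exact 95% counting intervals as bars. The ligand genes and Socs3 lie to the right in macrophages at dpi2 (1.03 to 3.62), and Socs3 lies at -1.13 at dpi4.

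Between dpi2 and dpi4 the calls in macrophages were not the same in the control and KO libraries, and whether the changes differ was not tested. In the control libraries 4 genes were higher at dpi4 and 0 lower, beside 9.65% and 6.06% of all genes: Socs3 (4.39-fold, 4.12 to 4.69), Il6 (3.36-fold, 2.04 to 5.82), Il10ra (3.15-fold, 2.97 to 3.34) and Il6ra (2.13-fold, 2.04 to 2.23). In the KO libraries 1 gene was higher and 2 lower, beside 8.88% and 5.05%. Il10ra was 4.04-fold (3.76 to 4.34) higher, and Il6 and Il10 fell to 0.359 (0.280 to 0.460) and 0.478 (0.442 to 0.517) of their dpi2 levels. Socs3 in the KO libraries was 81.8 CPM at dpi2 and 58.4 CPM at dpi4, a ratio of 0.713. Il10 in the control libraries was 19.0 and 26.1 CPM, a ratio of 1.38 (1.26 to 1.51), under the limit. The macrophages of dpi2 and dpi4 lay in different clusters (1, 10 and 12 against 0, 4, 6 and 13).

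These changes over time depended on how macrophages were delimited. With monocytes and macrophages pooled, 1 gene was higher (Socs3) and 1 lower (Il6) in the control libraries. Their log2 ratios there were 1.16 for Socs3 (2.14 as reported), -2.74 for Il6 (1.75), 0.94 for Il10ra (1.66), 0.67 for Il6ra (1.09) and -0.69 for Il10 (0.46). The last was -0.02 with each library clustered by itself. Clusters 1 and 14 held control cells of both times, and the dpi4 to dpi2 ratios in them were, in that order, 2.32 and 1.16 for Socs3, 1.09 and 1.24 for Il6ra, 1.41 and 2.75 for Il10ra and 0.474 and 1.06 for Il10. Il6 in these clusters had too few UMIs for a call. In the KO libraries the number of lower genes was 1 with up to 20% mitochondrial UMIs, where Il10 gave a log2 ratio of -0.62, and 1 with barcodes of at least 200 genes, where Il6 gave -0.89. With pooled classes 3 genes were lower in the KO libraries, with log2 ratios of -3.64 for Il6 (-1.48 as reported), -1.43 for Il10 (-1.06) and -1.08 for Osm (-0.32), and Il10ra gave 1.34 (2.01). Within 3 clusters of KO cells the Il10 ratio ran from 0.635 to 2.40, and no interval left out 1. Il10ra ran from 1.80 to 2.92 in these clusters, all 3 intervals above 1. Socs3 ran from 0.294 to 0.611, all 3 below 1, a larger fall than the 0.713 over all macrophages.

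The wider pathway was read through 53 genes of a list that also covers other gp130 and IL-10 family ligands, receptor chains, sheddases, kinases and STATs, inhibitors, targets and regulators. In the matrices 52 were found. In macrophages at dpi2, 39 had enough UMIs, of which 6 were higher in the KO library and 0 lower, beside 2.30% and 2.18% of all genes, and their median log2 ratio was 0.33. Of the ligands, Lif, a gp130 cytokine, was 0.917 and 3.97 CPM (4.33-fold). Clcf1, another gp130 cytokine, was 1.19 and 11.7 CPM (9.84-fold). Among 11 target genes of STAT3 and IL-10 with enough UMIs 3 were higher. Nfil3, a transcription factor, was 23.7 and 59.0 CPM (2.49-fold). Il1rn, the antagonist of IL-1, was 141 and 296 CPM (2.10-fold). Junb, an AP-1 subunit, was 656 and 1471 CPM (2.24-fold). Cebpb, a transcription factor that binds the Il6 promoter, was 466 and 1025 CPM (2.20-fold). None of the 7 kinases and STATs and none of the 7 inhibitors with enough UMIs was called.

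In monocytes at dpi2, 2 genes were higher and 2 lower of 38, beside 1.90% and 2.74% of all genes, and nothing is read from these small counts. Lif was 4.39 and 24.6 CPM (5.60-fold) and Clcf1 8.04 and 41.7 CPM (5.19-fold). Il27, the IL-27 p28 subunit, was 5.43 and 1.83 CPM, a ratio of 0.336, and was among the lower genes. In macrophages at dpi4, 3 of 41 genes were higher and 1 lower, beside 0.986% and 1.42% of all genes. Lif was 0.461 and 1.03 CPM, Clcf1 3.12 and 8.77 CPM and Myc, a growth regulator, 4.76 and 11 CPM. Il27ra, which pairs with gp130 as the IL-27 receptor, was 0.816 and 0.394 CPM. In monocytes at dpi4 none of 24 was called.

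**Figure D5:**
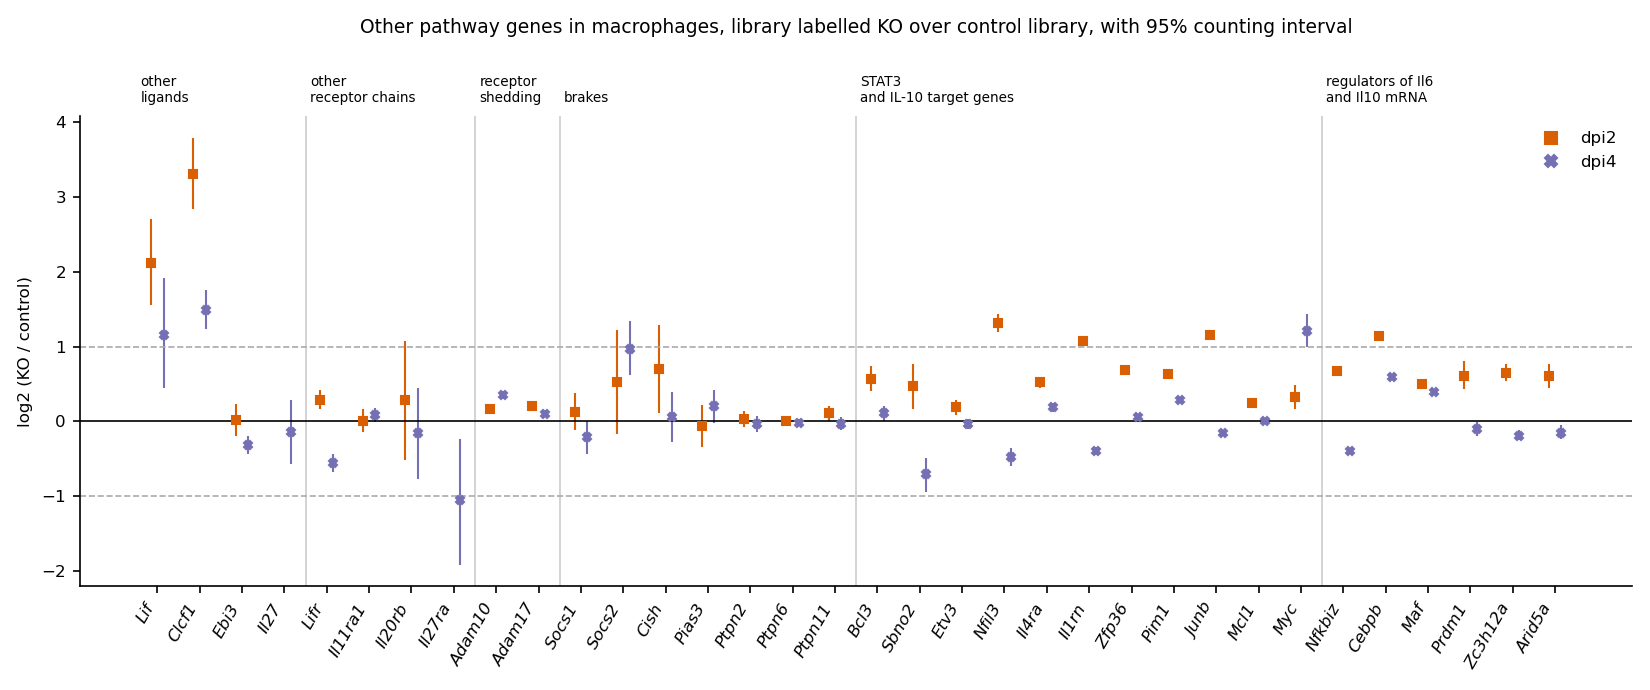
KO to control ratio (log2) in macrophages at dpi2 and dpi4 of the pathway genes with enough UMIs, grouped by role and without the kinases and STATs, of which none was called, with exact 95% counting intervals as bars. Clcf1 (9.84-fold) and Lif (4.33-fold) lie highest at dpi2, and dashed lines mark a 2-fold difference.

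The genes whose pattern over 28 sums of a class in a library was most like that of each ligand and of Socs3 were ranked by Pearson's r of log2(CPM + 10). These sums share libraries and the points are not independent, so r is a description. For Il6 they were Plcb1 (r = 0.87), Nxpe4 (0.85), Ace and Filip1l (both 0.84) and Hotairm1 (0.79). For Il10 they were Mmp19 (0.88), F13a1 (0.87), Ms4a4a and Rab1a (both 0.85) and Msr1 (0.83). Osm was closest to Gm5150 (0.93), Lilrb4a and Cd44 (both 0.91) and Prdx5 and Sirpb1c (both 0.90). Among the genes closest to Socs3 were Tnrc18 (0.90), Palm (0.87), Zfp608 (0.86) and Csnk1e (0.85).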

How the data were processed

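Per the labels, the authors deposited filtered gene-by-cell UMI counts made with Cell Ranger 6.1.2 on mm10, whole numbers that had not been normalized. The labels name the 3′ v2 kit and the study's methods v3.1, and which was used was not settled. All 4 matrices were read, and barcodes were kept with at least 500 genes and under 10% mitochondrial UMIs. The highest Scrublet scores were removed at 0.8% per 1000 cells. The 4 libraries were clustered together without integration (scanpy 1.11.5, 2000 variable genes, 30 components, 15 neighbours, Leiden resolution 1 with leidenalg 0.10.2, Python 3.11.15), with the 9 genes and the pathway list kept out of the variable genes. Clusters were named from fixed markers, of which 77 of 78 matched. The study's own cell filter, doublet caller, integration and tests over cells were not used, since cells are not replicates, so classes here may differ from its classes. Deposited counts were summed per class and library and divided by the class total, with exact Poisson, conditional binomial and Clopper-Pearson intervals at 95%. Differences in sequencing depth enter only through these intervals and the thinning to 2000 UMIs. PCR copies are collapsed by UMIs, and intervals cover counting error only. Ratios were tested on simulated data. The alternatives included TMM factors from edgeR 4.0.16 in R 4.3.3, where edgeR served for scaling factors only. The genes named were the 9 members in every class, the pathway genes past the 2-fold rule in macrophages or monocytes, and the 5 genes with the most similar pattern for each of Il6, Il10, Osm and Socs3, among genes with at least 100 UMIs. The members, lists and rules were chosen with earlier results of these data known, and the immediate-early and heat shock lists were written after the members' values had been seen. Promoter sequences and motif searches used the RefSeq table of GRCm38.p6. Some items that these rules name are not reported here.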

Additional observations from a re-analysis of the deposited data

Results flagged for a closer look

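These results are listed because the KO to control ratio of a gene had intervals on opposite sides of 1 at dpi2 and dpi4 in the same class, with at least 50 UMIs in each pair of libraries. Il10 in monocytes met the first condition but had 25 and 10 UMIs at dpi4. The difference between the 2 times was not tested, as each group is 1 library. Socs3 in macrophages had a log2 ratio of 1.49 (1.38 to 1.59) at dpi2, which was -1.13 (-1.20 to -1.07) at dpi4. Socs3 in monocytes gave 0.91 (0.83 to 0.99) and -1.04 (-1.51 to -0.57), the second from 48 control and 69 KO cells. Socs3 in dendritic cells gave 0.33 (0.13 to 0.53) and -0.56 (-0.68 to -0.44). Stat3 in macrophages gave 0.33 (0.26 to 0.40) and -0.11 (-0.16 to -0.06), and Stat3 in neutrophils 0.25 (0.07 to 0.44) and -0.90 (-1.62 to -0.25), the second with 22 UMIs in 35 KO cells.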

How the results depend on the processing

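Each group is 1 library, so animal-to-animal variation, library preparation and genotype cannot be told apart, and the calls rest on rebuilt cell classes. Within genotype, the KO libraries also carried Cre and had little Lyz2 mRNA, unlike the controls. Loss of Bach1, loss of Lyz2 mRNA and Cre therefore cannot be told apart either. Over 123 values and counts, 1048 alternatives were computed, of which 874 left the value within its interval or the count within 1.5 times, 164 moved it and 10 turned its direction. Calls in monocytes and neutrophils at dpi4 and in dendritic cells changed under several alternatives, and few UMIs limit what can be called there. No paired analysis was possible because the labels give no replicate numbers. The control cluster mix could not be computed for monocytes at dpi4, since no cluster held 20 cells in both libraries. Unless a setting below shows the cause by its construction, the cause was not tested.

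The following are log2 ratios of KO to control. Pooling monocytes and macrophages gave 1.51 for Il6 (3.62 in macrophages and 1.73 in monocytes as reported), 0.53 for Osm, 0.65 for Il10 and 0.99 for Socs3 at dpi2. With KO clusters weighted by control cluster shares, macrophages at dpi2 gave 2.49 for Il6, 0.47 for Osm, 0.54 for Il10 and 1.13 for Socs3, and monocytes gave 1.59 for Il6 and -0.24 for Il10 (0.39 as reported). With up to 20% mitochondrial UMIs, macrophages at dpi2 gave 0.94 for Osm and 1.22 for Il10. Without doublet removal Il10 there was 1.29, and Socs3 in macrophages at dpi4 was -1.06, against -0.97 with each library clustered by itself. TMM scaling turned Il6ra and Socs3 in neutrophils at dpi2 to 0.02 and 0.00. Osm in dendritic cells at dpi4 (0.35) turned to -0.19 with barcodes of at least 200 genes, -0.23 with each library clustered by itself and -0.11 at Leiden resolution 2. For dpi4 over dpi2 in control macrophages, pooling with monocytes turned Il6 to -2.74 (1.75), Osm to -0.84 (0.44) and Il10 to -0.69 (0.46), and clustering each library by itself turned Il10 to -0.02.

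The following are numbers of the 9 genes called. In macrophages at dpi2, 4 were higher, against 1 with pooled classes and 2 (Il6 and Socs3) with the control cluster mix. In macrophages at dpi4, 1 was lower, against 0 with each library clustered by itself. In monocytes at dpi2, 1 was higher, against 2 at 1.5-fold. In monocytes at dpi4, 0 were higher, against 1 each with 20% mitochondrial UMIs, at least 200 genes, the 9 genes allowed among the variable genes, or at least 20 UMIs. There 1 was lower, against 0 each with 20% mitochondrial UMIs, no doublet removal, Leiden resolution 0.5, the 9 genes allowed among the variable genes, or at least 200 UMIs, and 2 each with each library clustered by itself or at least 20 UMIs. In neutrophils 0 were lower at dpi2, against 1 at 1.5-fold. In neutrophils at dpi4, 0 were higher, against 1 each with each library clustered by itself or at least 20 UMIs, and 0 were lower, against 1 with each library clustered by itself and 3 at 1.5-fold. In dendritic cells at dpi2, 0 were higher, against 1 each with each library clustered by itself or at 1.5-fold, and 1 was lower, against 0 each with 20% mitochondrial UMIs, at least 200 genes, each library clustered by itself, Leiden resolution 0.5, the 9 genes among the variable genes, or at least 200 UMIs. In dendritic cells at dpi4, 1 was lower, against 0 each with at least 200 genes, no doublet removal, each library clustered by itself, Leiden resolution 2, or at least 200 UMIs. For dpi4 over dpi2 in control macrophages, 4 were higher and 0 lower, against 1 and 1 with pooled classes. In KO macrophages, 1 was higher, against 2 each with 20% mitochondrial UMIs or at 1.5-fold, and 2 were lower, against 1 each with 20% mitochondrial UMIs or at least 200 genes.

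The counts of pathway genes were recomputed only with TMM factors and with other fold or UMI limits. Other filters, other clusterings, pooled classes and the control cluster mix were not applied to them. Of the pathway genes in macrophages at dpi2, 6 were higher and 0 lower, against 13 and 1 at 1.5-fold. At dpi4, 3 were higher and 1 lower, against 5 and 2 at 1.5-fold, and 0 were lower with at least 200 UMIs. In monocytes at dpi2, 2 were higher, against 8 at 1.5-fold, and 2 lower, against 1 with at least 200 UMIs. In monocytes at dpi4, 0 were higher, against 1 at 1.5-fold.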

Other observations

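The shallow unnamed cluster, in which Osm lay above neutrophils at dpi2, had markers nearest to those of neutrophils, and its leading genes were Pdcd1lg2, Il1f9 and Rab15. Il10rb was 516 and 492 CPM in its 90 control and 483 KO cells at dpi2.

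Some of the genes were detected in the same cells. With cells thinned to 2000 UMIs, Osm was found in 34.3% (23.2 to 46.9) of KO macrophages at dpi2 that had an Il10 UMI and in 17.4% of those without one. In the control library at dpi2 the shares were 15% (7.10 to 26.6) and 9.88%, where the interval included the second share. In control macrophages at dpi4 these shares were 26.0% (17.9 to 35.5) and 10.4%. Socs3 was found in 30.2% (21.7 to 39.9) of control monocytes at dpi2 with an Il6 UMI and in 14.9% of those without one. In the KO library these shares were 34.3% (25.4 to 44.0) and 26.2%, where the interval again included the second share. Il10 in KO monocytes at dpi2 was found in 7.41% (3.25 to 14.1) of cells with an Il6 UMI and in 9.99% of the others. Cells of 1 library share their source, and these shares carry no test.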
